A study of Mus musculus with 9 samples.

Results

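The genes described here encode the pre-T-cell receptor alpha chain, the CD3 chains that carry the receptor's signal, the recombinase that assembles receptor genes, and the first signalling proteins of the receptor pathway. The 10 genes were Ptcra, Rag1, Rag2, Cd3e, Cd3g, Cd3d, Cd247, Lck, Zap70 and Lat. Of these, 8 had a transcript cluster under their symbol among the 22206 clusters of the array, each with 1 cluster. Rag1 and Lck had none under their symbol and were not analysed here. A transcript cluster is the set of probes that reads the exons of a gene, and its value here is the authors' deposited signal on a log2 scale, so that a difference of 1 is a doubling.

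The arrays held total RNA from thymic lobes of C57BL/6 mouse embryos at e13.5, hybridised to Clariom S arrays. Wild type, Foxn1933/1089 and Tbx1neo2/neo2 embryos gave 3 arrays each, 9 in all. Foxn1 encodes the transcription factor that thymic epithelium needs to differentiate, and Foxn1933/1089 embryos (here Foxn1 mutants) carried 2 different mutant alleles. Tbx1 encodes a T-box factor of the pharyngeal pouches, and Tbx1neo2/neo2 embryos (here Tbx1 mutants) were homozygous for an allele known to lower its expression. No agent or further allele is given for any group. The labels do not say whether lobes of several embryos were pooled or whether the 3 arrays of each genotype are of different embryos. The p-values therefore reflect the spread among these samples alone. In whole lobes, fewer cells of a type and less RNA per cell cannot be told apart.

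Progenitors that enter the fetal thymus become T cells by cutting and rejoining their receptor genes with the RAG1 and RAG2 recombinase. A rearranged beta chain pairs with the invariant pre-TCR alpha chain, and this pre-TCR assembles with CD3 gamma, delta, epsilon and zeta. The tails of the CD3 chains are phosphorylated by LCK and FYN, ZAP70 docks on them, and ZAP70 in turn phosphorylates the adaptor LAT. At this stage of mouse development the lobes are known to hold immature thymocytes and lymphoid progenitors, most of which have not yet passed the pre-TCR checkpoint.

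**Figure D1:**
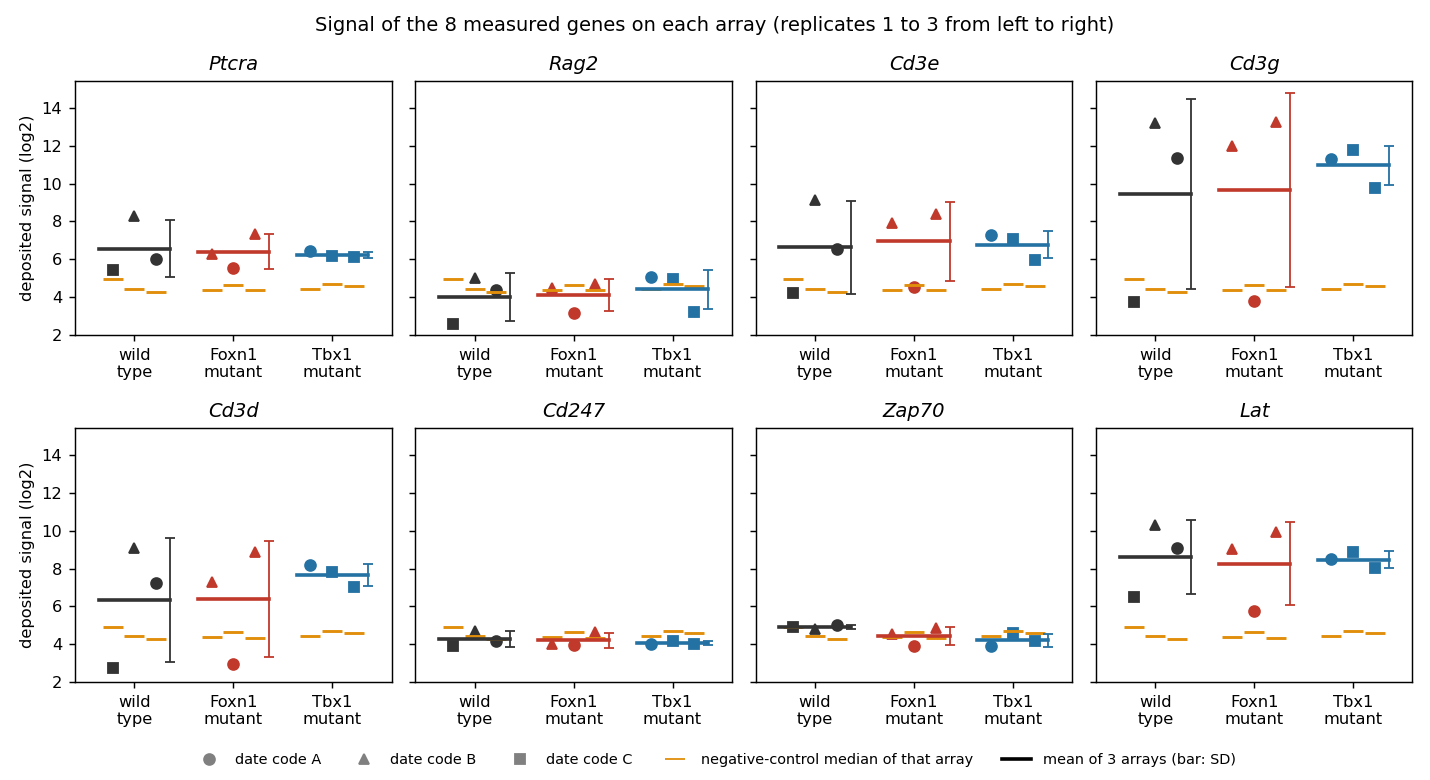
Deposited log2 signal of the 8 measured genes on each array, with replicates 1 to 3 of a genotype from left to right and the marker shape giving the date code of the sample title. Horizontal lines are means of 3 arrays with SD bars, and the short orange lines are each array's negative-control median. Cd3g stood between 9.79 and 13.25 on 7 arrays and at 3.73 and 3.79 on the first wild type and the second Foxn1 mutant array.

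The array medians lay between 5.09 and 5.20, and the medians of the 5222 negative controls between 4.27 and 4.94. Wild type replicate 1 and Foxn1 mutant replicate 2 stood apart from the other 7 arrays. Prss16, which encodes a protease of the cortical epithelium, read 4.24 and 4.45 on these 2 arrays and 13.87 to 14.43 on the 7 others. The means over 15 thymic epithelial genes were 7.03 and 7.37 on them against 9.92 to 10.28, and those over 17 pan-leukocyte genes 6.36 and 6.41 against 9.13 to 10.18. The mean of 9 neuronal genes was 12.50 on the first of these arrays and 5.82 to 6.44 on the 8 others, and the mean of 6 genes of the heart atrium was 8.76 on the second and 5.03 to 7.13 on the 8 others. The means over 8 housekeeping genes were 11.97 and 12.20 on the 2 arrays and 12.57 to 13.14 on the others. The differences between genotypes are therefore given with and without these 2 arrays, which are called thymus-poor below, while the counts of genes whose arrays do not overlap and the test for any difference cover all 9 arrays only. The sample titles also carry 3 different date codes (here A, B and C), and what they mark is unknown. Of the wild type arrays, replicate 1 has code C, replicate 2 code B and replicate 3 code A. Of the Foxn1 mutant arrays, replicates 1 and 3 have code B and replicate 2 code A, and of the Tbx1 mutant arrays replicate 1 has code A and replicates 2 and 3 code C. The titles of all wild type and Foxn1 mutant samples begin with Foxn and those of all Tbx1 mutants with Tbx. What this prefix marks is unknown. In comparisons with Tbx1 mutants, prefix and genotype cannot be told apart. Foxn1, the targeted gene, read 10.35, 10.01 and, on the thymus-poor array, 7.78 in wild type, and 9.02, 9.67 and, on the thymus-poor array, 8.73 in Foxn1 mutants. It lay between 8.88 and 10.04 in Tbx1 mutants. Tbx1 lay between 4.80 and 5.38 in Tbx1 mutants and between 4.25 and 5.85 in wild type. Over all arrays both signals overlapped between mutants and wild type, while on the thymus-rich arrays alone Foxn1 was lower in both Foxn1 mutant arrays than in both wild type arrays. On the same arrays Tbx1 read 5.38, 4.80 and 5.30 in Tbx1 mutants. All 3 values were above those of both wild type arrays (4.25 and 4.54). An allele that lowers its expression would give the other order. All these values lay near the negative controls, so they cannot show whether the allele lowers it. How many of all clusters separate in these ways on the thymus-rich arrays was not counted. Neither signal settles the labels, and the directions given for Tbx1 mutants rest on the labels alone. Which part of each gene its probes read was not analysed here.

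The promoters of the genes that read above the negative-control median on all 7 thymus-rich arrays are shown because these genes were high and low on the same arrays. Each line gives the 250 bases before the start of the gene, 5′ to 3′ on the gene's strand, from RefSeq on build GRCm38.p6. Capitals mark E-boxes (CANNTG, read on both strands), the sites that E proteins such as E2A and HEB recognise in T-cell precursors. Ptcra lies at chr17:46763713-46763962 on the minus strand, Cd3e at chr9:45009612-45009861 on the minus strand, Cd3g at chr9:44980432-44980681 on the minus strand, Cd3d at chr9:44981536-44981785 on the plus strand and Lat at chr7:126369569-126369818 on the minus strand.
Ptcra: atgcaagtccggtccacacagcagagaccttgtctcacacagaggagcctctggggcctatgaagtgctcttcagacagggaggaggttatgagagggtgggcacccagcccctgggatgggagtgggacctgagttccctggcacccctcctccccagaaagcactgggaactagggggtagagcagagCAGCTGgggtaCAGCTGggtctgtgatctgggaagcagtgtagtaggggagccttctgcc
Cd3e: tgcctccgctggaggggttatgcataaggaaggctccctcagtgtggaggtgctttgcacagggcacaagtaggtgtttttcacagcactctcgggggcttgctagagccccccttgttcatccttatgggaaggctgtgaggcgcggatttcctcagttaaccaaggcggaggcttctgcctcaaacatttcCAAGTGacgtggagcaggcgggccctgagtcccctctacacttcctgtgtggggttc
Cd3g: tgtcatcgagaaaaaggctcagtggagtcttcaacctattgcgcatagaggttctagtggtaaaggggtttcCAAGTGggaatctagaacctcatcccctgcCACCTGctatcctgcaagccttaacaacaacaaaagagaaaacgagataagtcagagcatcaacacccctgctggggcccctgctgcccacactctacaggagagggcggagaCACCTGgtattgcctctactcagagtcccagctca
Cd3d: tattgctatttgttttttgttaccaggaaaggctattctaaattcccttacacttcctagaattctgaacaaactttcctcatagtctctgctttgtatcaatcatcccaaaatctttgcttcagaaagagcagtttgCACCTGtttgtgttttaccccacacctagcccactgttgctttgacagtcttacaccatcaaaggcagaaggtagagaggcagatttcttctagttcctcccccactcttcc
Lat: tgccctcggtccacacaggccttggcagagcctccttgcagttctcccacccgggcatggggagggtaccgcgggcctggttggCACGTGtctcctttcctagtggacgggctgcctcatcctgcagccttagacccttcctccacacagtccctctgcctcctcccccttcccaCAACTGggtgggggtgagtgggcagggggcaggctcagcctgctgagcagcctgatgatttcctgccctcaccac

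The Cd3g and Cd3d starts lie 1355 bases apart on opposite strands, and Cd3e lies beside them on the same chromosome. The Ptcra window holds 2 E-boxes, both with the letters CAGCTG, at bases -60 to -55 and -49 to -44 counted from the start. Cd3g holds 3 E-boxes, 2 of them CACCTG. Cd3e and Cd3d hold 1 each and Lat holds 2. Among 32851 mouse promoters of the same table, 66.2% held CANNTG in their windows of the same length, 4271 held CAGCTG and 17.2% held CACCTG or its complement, so an E-box alone sets none of these promoters apart. The letters CTTTGA of the TCF factors matched at 2 places in the Cd3d window and in 13.8% of all promoters, and AGATAA of the GATA factors matched once in the Cd3g window and in 9.99%. These matches describe the letters only.

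The recombinase was represented by Rag2 (transcript cluster TC0200001513.mm.2), the partner that RAG1 needs to cut DNA at receptor gene segments. It read 2.61, 5.02 and 4.40 in wild type, 4.50, 3.15 and 4.71 in Foxn1 mutants, and 5.07, 4.98 and 3.24 in Tbx1 mutants. These values lay near the negative controls, whose median they exceeded on 6 of the 9 arrays. The 3 low arrays were both thymus-poor arrays and Tbx1 mutant replicate 3, and the genotypes overlapped throughout. The means were 4.01 ± 1.25 in wild type, 4.12 ± 0.84 in Foxn1 mutants and 4.43 ± 1.03 in Tbx1 mutants (SD, n = 3 each), an order whose steps were smaller than the spread.

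Ptcra (TC1700002190.mm.2), the invariant chain that stands in for TCR alpha in the pre-TCR, was above the negative-control median on all 9 arrays. It read 5.43, 8.27 and 6.01 in wild type, 6.29, 5.54 and 7.37 in Foxn1 mutants, and 6.43, 6.18 and 6.12 in Tbx1 mutants. Wild type replicate 2 and Foxn1 mutant replicate 3 were the 2 highest arrays, and the other 5 thymus-rich arrays lay within 6.01 to 6.43. The means were 6.57 ± 1.501, 6.40 ± 0.92 and 6.25 ± 0.16 in the same order of genotypes. The Tbx1 mutant arrays lay inside the range of both other genotypes.

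The CD3 gamma, delta and epsilon genes sit in 1 cluster on chromosome 9, and their proteins form the CD3 gamma-epsilon and delta-epsilon pairs of the receptor. Cd3g (TC0900002188.mm.2) read 3.73, 13.18 and 11.37 in wild type, 11.99, 3.79 and 13.25 in Foxn1 mutants, and 11.30, 11.80 and 9.79 in Tbx1 mutants. It exceeded between 96.7% and 99.4% of the negative controls on the 7 thymus-rich arrays and 24.9% and 31.2% of them on the thymus-poor arrays, where it lay under their median. The 7 arrays averaged 8.06 above the 2, the widest such gap among the 8 genes, and spanned 3.45 among themselves.

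Cd3d (TC0900000529.mm.2) followed the same arrays, with 2.74, 9.07 and 7.22 in wild type, 7.30, 2.97 and 8.87 in Foxn1 mutants, and 8.17, 7.80 and 7.003 in Tbx1 mutants. Its gap between the 7 and the 2 arrays was 5.07. Cd3e (TC0900002189.mm.2), the chain shared by both CD3 pairs, read 4.22, 9.15 and 6.55 in wild type, 7.94, 4.56 and 8.37 in Foxn1 mutants, and 7.27, 7.10 and 5.99 in Tbx1 mutants, with a gap of 3.09. On the thymus-poor arrays both genes were under the negative-control median. Within each genotype the SD of these 3 CD3 genes ran from 2.09 to 5.14 in wild type and Foxn1 mutants, each of which held a thymus-poor array, and from 0.60 to 1.04 in Tbx1 mutants, which held none.

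Cd247 (TC0100001527.mm.2) encodes CD3 zeta, the chain with the most phosphorylation motifs. It read 3.93, 4.72 and 4.16 in wild type, 4.00, 3.97 and 4.67 in Foxn1 mutants, and 3.99, 4.18 and 4.02 in Tbx1 mutants. Only wild type replicate 2 and Foxn1 mutant replicate 3 were above their array's negative-control median. Cd247 exceeded 57.0% and 57.3% of the negative controls there, so its level was not clearly above background on any array.

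Of the proximal signalling genes, Zap70 (TC0100000255.mm.2), the kinase recruited to phosphorylated CD3 tails, also read near background. It gave 4.90, 4.82 and 5.03 in wild type, 4.55, 3.92 and 4.87 in Foxn1 mutants, and 3.89, 4.58 and 4.18 in Tbx1 mutants, and exceeded the negative-control median on 4 arrays. Its 3 wild type arrays lay above its 3 Tbx1 mutant arrays. On wild type replicate 1 the signal was under that array's own negative-control median, and all 3 Tbx1 mutant arrays were under theirs.

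Lat (TC0700004273.mm.2), the membrane adaptor that ZAP70 phosphorylates, was above the negative-control median on all 9 arrays. It read 6.48, 10.31 and 9.09 in wild type, 9.06, 5.77 and 9.94 in Foxn1 mutants, and 8.53, 8.88 and 8.01 in Tbx1 mutants. With all arrays the genotypes overlapped. Among the 7 thymus-rich arrays the 3 of Tbx1 mutants were the 3 lowest. How many of all clusters show this order on the 7 arrays was not counted.

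The genes were high and low on much the same arrays. The thymus-poor arrays were the 2 lowest for 7 of the 8 genes, the exception being Zap70. For Cd247 and Rag2 the margin was small and under the negative-control median. Cd247 read 3.93 and 3.97 on these arrays against 3.99 on Tbx1 mutant replicate 1. Rag2 read 3.15 on Foxn1 mutant replicate 2 against 3.24 on Tbx1 mutant replicate 3. By comparison, 15 of 17 pan-leukocyte and 12 of 15 thymic epithelial genes were lower on both thymus-poor arrays than on each of the 7. The same held for 4 of 8 housekeeping genes and 0 of 11 macrophage genes. These arrays were named for low thymic epithelial and leukocyte signal, so the count for the receptor genes adds no separate support. The share of all clusters was not counted. Wild type replicate 2 and Foxn1 mutant replicate 3, both of date code B, were the 2 highest arrays for 6 of the 8, the exceptions being Rag2 and Zap70. All 3 code B arrays lay above the other 4 thymus-rich arrays for Cd3e and Cd3g. Tbx1 mutant replicate 3 was the lowest of the 7 for 5 of the 8. How many of all clusters show each of these orders of arrays was not counted either. Code B held no Tbx1 mutant.

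The spread among the 7 thymus-rich arrays was set beside the general leukocyte signal. The 5 genes above the negative-control median on all 7 were Ptcra, Cd3e, Cd3g, Cd3d and Lat. Over the 9 arrays, Cd3g exceeded the controls' 95th percentile on 7, Lat on 4, Cd3e and Cd3d on 2 each and Ptcra on 0. The mean of the 5 genes was 9.998 on wild type replicate 2 and 8.05 on wild type replicate 3. The pan-leukocyte means of these arrays were 10.18 and 10.14. The arrays also differed in date code, B and A. The part of the leukocyte signal in the receptor gene values was not tested. Foxn1 mutant replicates 1 and 3 gave 8.52 and 9.56 against leukocyte means of 9.80 and 10.01. Tbx1 mutant replicates 1, 2 and 3 gave 8.34, 8.35 and 7.38 against leukocyte means of 9.18, 9.68 and 9.13. Relative to the leukocyte mean of the same array, the 5 genes were highest in replicate 2 of wild type (-0.18) and replicate 3 of Foxn1 mutants (-0.45) and lowest on wild type replicate 3 (-2.09), whose value was below those of both thymus-poor arrays (-1.84 and -1.88). Tbx1 mutants lay between -0.84 and -1.75. The thymus-poor arrays gave 4.52 and 4.53, and 3 of the 5 genes were under the negative-control median there.

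**Figure D2:**
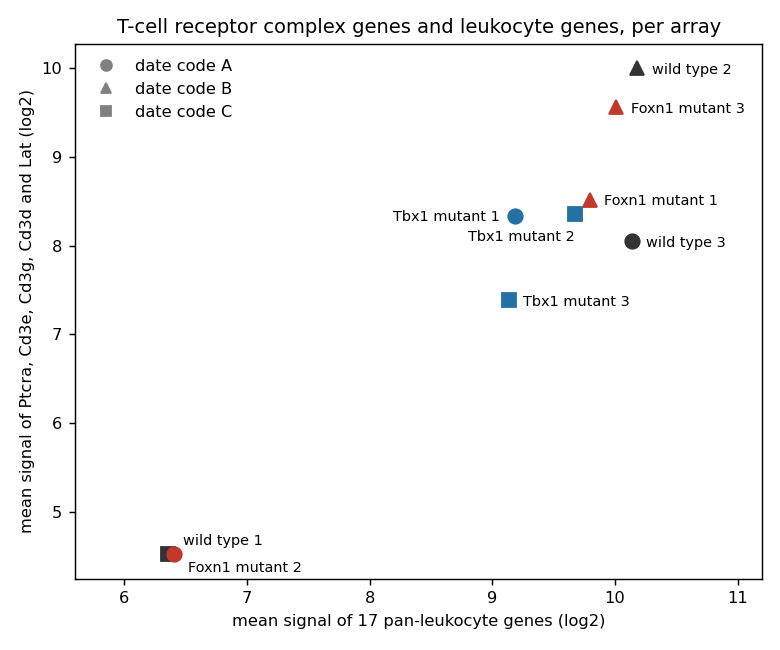
Mean log2 signal of Ptcra, Cd3e, Cd3g, Cd3d and Lat on the vertical axis against the mean of 17 pan-leukocyte genes on the horizontal axis, 1 point per array, coloured by genotype and shaped by date code. Wild type replicates 2 and 3 have leukocyte means of 10.18 and 10.14 and receptor gene means of 9.998 and 8.05, and the thymus-poor arrays lie at the lower left.

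Foxn1 mutants were first set against wild type, which asked whether the compound Foxn1 mutation altered the receptor genes of the lobes. No gene passed the test with all 9 arrays. Differences of Foxn1 mutants minus wild type ran from -0.47 for Zap70 to 0.32 for Cd3e, with a median over the 8 genes of -0.01 beside 0.02 over all clusters. For Cd3g the difference was 0.25 ± 2.73 (SE), with a 95% confidence interval from -5.88 to 6.38. Limma called 0 of the 8 genes at an adjusted p under 0.05 (adjusted p = 1.0 each), where 0.0% of all clusters were called. At an unadjusted p under 0.05 the count was 0 of 8 against 4.04% of clusters, and the arrays of the genotypes did not overlap for 0 of 8 against 8.29%.

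Without the thymus-poor arrays the differences of Foxn1 mutants from wild type ran from -0.31 for Ptcra to 0.34 for Cd3g, with adjusted p between 0.939 and 0.994 in limma. The interval for Cd3g narrowed to -1.41 to 2.08 and that for Lat (difference -0.20) was -1.27 to 0.87. The median of the 8 was -0.10 beside 0.005 over all clusters, with 6 of 8 lower. None of the 8 passed at an adjusted p (0.0% of clusters) or an unadjusted p under 0.05 (5.62% of clusters). Single arrays turned the direction: the Cd3g difference was -2.61 without wild type replicate 1 and 3.19 without Foxn1 mutant replicate 2. Date code B holds no thymus-poor array. There the mean of both Foxn1 mutant arrays was below the 1 wild type array for all 8 genes. The differences were -1.45 for Ptcra, -0.99 for Cd3e and -0.57 for Cd3g. By itself, Foxn1 mutant replicate 3 read above that wild type array for Cd3g (13.25 against 13.18) and Zap70 (4.87 against 4.82). How many of all clusters were lower there was not counted. Within code A, where the Foxn1 mutant array is thymus-poor, the median difference was -1.62. A within-code difference with 1 wild type array has no test.

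Setting Tbx1 mutants against wild type gave differences from -0.70 for Zap70 to 1.54 for Cd3g over all 9 arrays, with a median of -0.01 beside 0.01 over all clusters. The Cd3g difference was 1.54 ± 2.73 (SE), with an interval from -4.59 to 7.67. Limma called 0 of 8 at an adjusted p under 0.05 (adjusted p = 1.0 each) against 0.0135% of clusters. At an unadjusted p under 0.05 it called 1 of 8 against 3.79%, Zap70 at -0.70 ± 0.28 (unadjusted p = 0.0326, limma adjusted p = 1.0). Zap70 was also the 1 of 8 whose arrays did not overlap, against 9.45% of clusters, and its Tbx1 mutant values were all in the range of the negative controls.

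Without the thymus-poor arrays all 8 genes were lower in Tbx1 mutants than in wild type, with a median of -0.80 beside -0.01 over all clusters. Lat differed by -1.23 ± 0.43 (SE), with an interval from -2.20 to -0.25 (unadjusted p = 0.0199, limma adjusted p = 0.501). Cd3g differed by -1.31 (limma adjusted p = 0.681), Cd3e by -1.07 and Ptcra by -0.90, each with an interval that included 0. The calls were 0 of 8 at an adjusted p under 0.05, against 0.00901% of clusters, and 2 of 8 (Zap70 and Lat) at an unadjusted p under 0.05, against 8.07%. The 3 Tbx1 mutant arrays also had lower leukocyte means (9.13 to 9.68) than both wild type arrays (10.14 and 10.18), and 16 of 17 pan-leukocyte genes were lower, with a median of -0.89 and 12 at an unadjusted p under 0.05. The part of this in the receptor gene differences was not tested. The wild type arrays in this comparison were of codes B and A and those of Tbx1 mutants of codes A, C and C. Within code A, with 1 array of each, the differences were 0.72 for Cd3e, 0.42 for Ptcra, -0.07 for Cd3g and -0.56 for Lat, with a median of 0.17 over the 8 genes. Leaving out wild type replicate 2 in place of replicate 1 gave a Cd3g difference of 3.41, and leaving out replicate 1 gave -1.31.

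The comparison of Foxn1 mutants with Tbx1 mutants gave no gene that passed the test with all 9 arrays. Values of Foxn1 minus Tbx1 mutants had a median of -0.03 beside 0.01 over all clusters, and Cd3g gave -1.29 ± 2.73 (SE), with an interval from -7.42 to 4.84. Limma called 0 of 8 at an adjusted p under 0.05 (adjusted p = 0.999 each) against 0.0% of clusters, 0 of 8 at an unadjusted p under 0.05 against 2.98%, and 0 of 8 did not overlap against 8.92%. Without Foxn1 mutant replicate 2 and wild type replicate 1 all 8 genes were higher in Foxn1 mutants. Their median was 0.54 beside 0.01 over all clusters. Cd3g was then 1.65 ± 0.70 (SE) higher, with an interval from 0.06 to 3.25 (unadjusted p = 0.0436, limma adjusted p = 0.571), and Lat 1.03 higher (unadjusted p = 0.0415, limma adjusted p = 0.565). These were the 2 of 8 at an unadjusted p under 0.05, against 8.53% of clusters, and 0 of 8 passed at an adjusted p under 0.05, against 0.00901%. The remaining Foxn1 mutant arrays were both of code B and no Tbx1 mutant array was, so code and genotype cannot be told apart there. In the same comparison 15 of 17 pan-leukocyte genes were higher in Foxn1 mutants, with a median of 0.59 and 8 at an unadjusted p under 0.05, and their part in the receptor gene differences was not tested. In the test for any difference among the 3 genotypes over all arrays, 0 of 8 genes passed at an adjusted p under 0.05 (0.00901% of clusters) and 0 of 8 at an unadjusted p under 0.05 (3.22%).

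**Figure D3:**
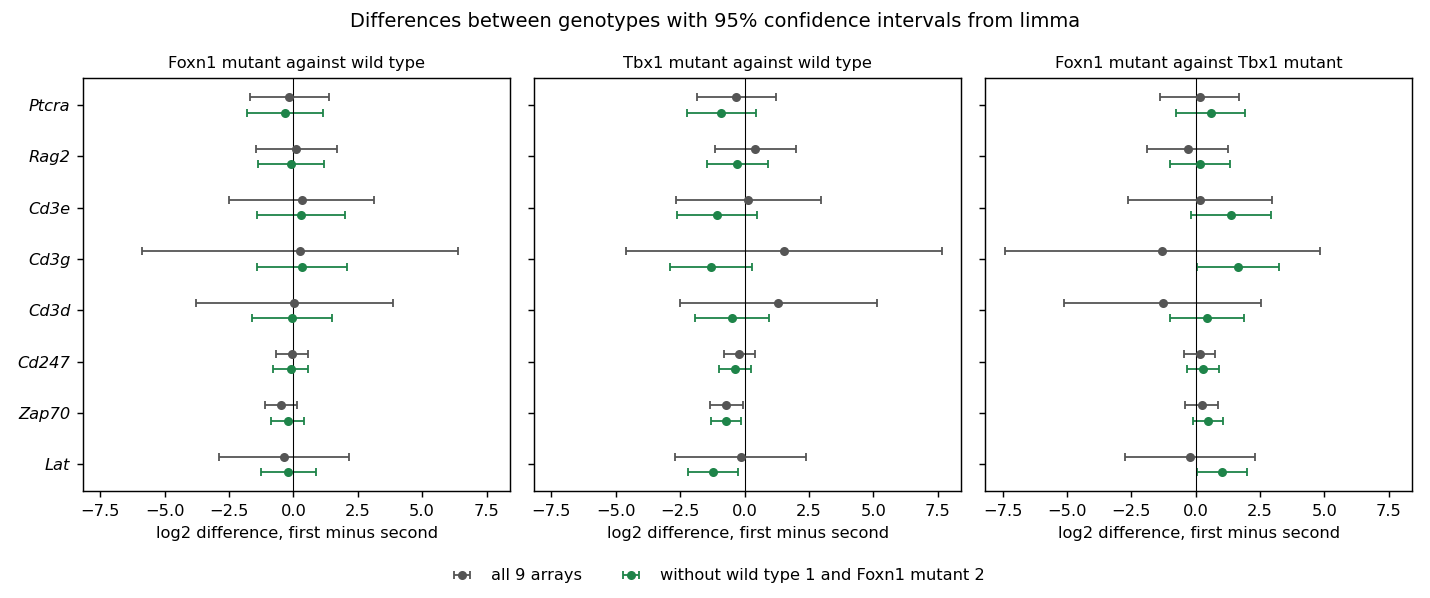
Differences between genotypes (log2, first minus second named) for the 8 genes, with 95% confidence intervals from limma, over all 9 arrays in grey and without the thymus-poor arrays in green. The Cd3g interval for Tbx1 mutants against wild type runs from -4.59 to 7.67 with all arrays and from -2.91 to 0.28 without the 2.

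Other genes of receptor signalling were taken from a list of 33, of which 30 had a cluster. Of these, 17 were above the negative-control median on all 7 thymus-rich arrays and 15 were lower on both thymus-poor arrays than on each of the 7. Fyn, the second Src kinase of the receptor, read 8.59 to 9.39 over all 9 arrays and so did not share the gap of the CD3 genes. Lcp2, the adaptor SLP-76 that works beside LAT, read 3.48 and 4.79 on the thymus-poor arrays and 5.53 to 6.45 on the others. Themis, a thymocyte signalling protein, read 4.64 and 3.41 against 5.32 to 7.001. Cd2, an adhesion receptor of T and NK cells, stayed between 2.77 and 4.47, near background. Limma called 0 of the 30 in any of the 3 comparisons, with and without the thymus-poor arrays, and with all arrays 0 of the 30 had an unadjusted p under 0.05 in any. The list medians were -0.09 for Foxn1 mutants against wild type, 0.02 for Tbx1 mutants against wild type and -0.13 for Foxn1 against Tbx1 mutants. Without the thymus-poor arrays, 25 of 30 were lower in Tbx1 mutants than in wild type, with a median of -0.33 and 7 at an unadjusted p under 0.05, against 8.07% of all clusters. The pan-leukocyte genes were lower in that comparison too (16 of 17, median -0.89), and their part in it was not tested.

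Of the partners of the recombinase in end joining, 16 were listed and 14 had a cluster. Of these, 13 were above the negative-control median on all 7 thymus-rich arrays and 4 were lower on both thymus-poor arrays. Lig4, the ligase that seals the cut ends, read 9.67 to 10.76, and Xrcc4, its scaffold, 5.28 to 5.90. Xrcc5, the Ku80 subunit that binds broken ends, read 7.91 and 8.36 on the thymus-poor arrays and 9.50 to 9.98 on the others. Dntt, the terminal transferase that adds bases at the joins and is known to be low before birth, was under the negative-control median on all 9 arrays (2.56 to 3.55). Limma called 0 of the 14 in any comparison. With all arrays 1 had an unadjusted p under 0.05 in Foxn1 mutants against wild type, 1 in Tbx1 mutants against wild type and 0 between the mutants, where 4.04%, 3.79% and 2.98% of all clusters did. Without the thymus-poor arrays 1 of the 14 did in each comparison, against 5.62%, 8.07% and 8.53% of clusters, and 12 of 14 were lower in Tbx1 mutants than in wild type, with a median of -0.16. The 10 listed constant genes of the T-cell receptor chains had no cluster under their symbols and were not analysed here.

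Among T-lineage transcription factors, 19 of 21 listed had a cluster, 17 were above the negative-control median on all 7 arrays and 8 were lower on both thymus-poor arrays. Notch1, the receptor that starts the T-cell program, read 6.11 and 6.07 on the thymus-poor arrays and 6.82 to 8.66 on the others, and its highest array was wild type replicate 3, where the receptor gene mean was 8.05. Dtx1, a Notch target, read 5.81 and 5.28 against 6.16 to 7.26. Bcl11b, which fixes T-lineage commitment, stayed between 4.63 and 5.79, and Hes1, another Notch target, between 3.68 and 4.62. Of 14 listed receptors of thymus-settling progenitors, 12 had a cluster and 6 were lower on both thymus-poor arrays. Il7r, the interleukin 7 receptor, read 3.12 and 3.25 on the thymus-poor arrays and 6.55 to 7.92 on the others. Kit, the stem cell factor receptor of early thymocytes, read 12.20 and 11.01 against 13.56 to 14.73. Thy1 was highest in replicate 2 of wild type (6.73) and replicate 3 of Foxn1 mutants (6.62), the same 2 arrays that led the CD3 genes, and lay between 4.77 and 5.42 on the other 5 thymus-rich arrays. Il2ra ran from 3.73 to 5.64 over all 9 arrays. Limma called 0 of the 19 and 0 of the 12 in any comparison. At an unadjusted p under 0.05 with all arrays, the counts in Foxn1 mutants against wild type, Tbx1 mutants against wild type and Foxn1 against Tbx1 mutants were 2, 1 and 1 of the 19 and 0, 0 and 1 of the 12, beside 4.04%, 3.79% and 2.98% of all clusters. Without the thymus-poor arrays they were 2, 4 and 3 of the 19 and 0, 2 and 3 of the 12, beside 5.62%, 8.07% and 8.53%. In that fit 13 of 19 transcription factors (median -0.24) and 9 of 12 progenitor receptors (median -0.67) were lower in Tbx1 mutants than in wild type.

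Markers of other cell types were read on the same arrays. Ptprc, the pan-leukocyte CD45, read 6.44 and 5.87 on the thymus-poor arrays and 10.26 to 12.36 on the others, and 15 of 17 pan-leukocyte genes were lower on both. Coro1a, Laptm5 and Cd53 shared this, at 5.59 and 4.34 against 7.51 to 9.11 for Coro1a, 10.77 and 11.23 against 13.22 to 14.54 for Laptm5, and 6.34 and 6.81 against 7.13 to 8.48 for Cd53. The thymus-poor arrays were named for low thymic epithelial and leukocyte signal, so the counts for these lists add no separate support. Innate lymphoid and natural killer cells can carry CD3 transcripts of their own. Of 15 of their genes measured (16 listed), 5 were above the negative-control median on all 7 thymus-rich arrays, with a list mean of 5.70 to 6.35 there and 4.09 and 3.80 on the thymus-poor arrays. The defining genes Ncr1 (2.28 to 3.59) and Eomes (2.87 to 3.90) were under the negative-control median on all 9 arrays, and Klrd1 and Tbx21 reached 5.46 and 5.07, both on wild type replicate 3. The part of these cells in the CD3 values was not tested.

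B-lineage genes, 11 of 12 measured, had means of 4.42 to 4.76 over all arrays, and Cd79a (2.34 to 3.38) and Pax5 (2.49 to 3.29) were under the negative-control median throughout. Cd79b reached 4.75, and Ebf1, which connective tissue also expresses, read 13.51 to 15.69. Macrophage genes, 11 of 12 measured, had means of 6.23 to 6.67 on the 7 thymus-rich arrays and 6.22 and 7.14 on the thymus-poor arrays, and 0 of the 11 were lower on both thymus-poor arrays. Csf1r read 8.59 to 10.20, Adgre1 4.59 to 5.68, C1qa 7.68 to 8.81 and C1qb 5.20 to 6.87. Thymic epithelial genes were lower on both thymus-poor arrays for 12 of 15, as for Psmb11, the thymus-specific proteasome subunit (3.40 and 3.36 against 9.52 to 10.66), and the Notch ligand Dll4 (6.78 and 8.28 against 11.04 to 12.06), and by a small margin for the chemokine gene Ccl25 (5.78 and 5.67 against 5.88 to 6.89). Among sympathetic neuron genes Th and Dbh read 12.44 and 12.04 in replicate 1 of wild type and at most 4.07 and 3.47 on the 8 other arrays. Hand2 and Stmn2 were also highest there (7.35 and 10.87). Of the heart genes Myl7 and Nppa read 10.71 and 7.55 on Foxn1 mutant replicate 2, while Myl4 and Tnnt2 were highest on wild type replicate 2 (12.49 and 9.25), an array high in the CD3 genes. The part of these tissues in the receptor gene values was not tested. Of the housekeeping genes Actb (18.48 to 18.86), Gapdh (16.23 to 16.51) and Tbp (10.92 to 11.47) varied little, and Hprt read 9.77 and 10.63 on the thymus-poor arrays against 11.66 to 12.34.

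**Figure D4:**
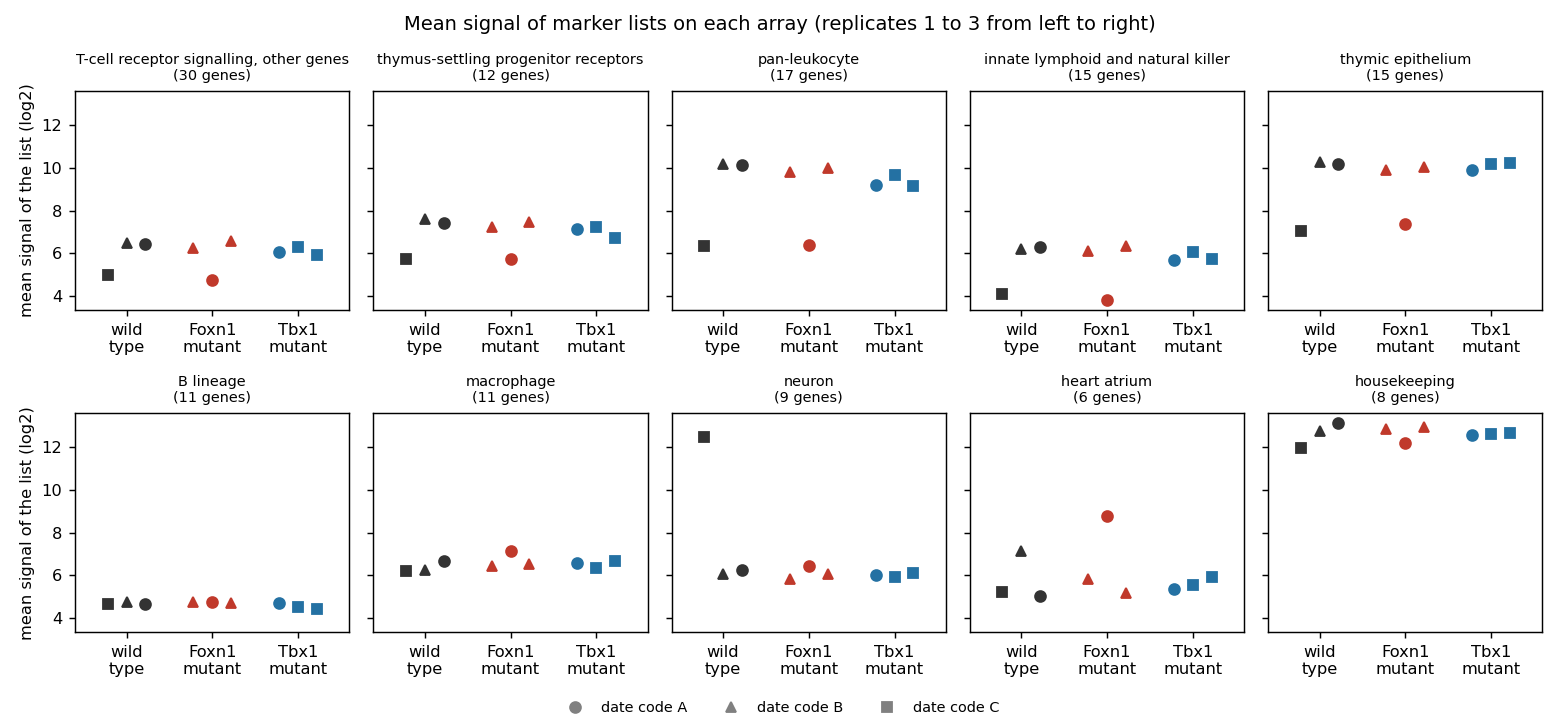
Mean log2 signal of 10 gene lists on each array, replicates 1 to 3 of a genotype from left to right and shaped by date code. Pan-leukocyte means are 6.36 and 6.41 on the first wild type and the second Foxn1 mutant array against 9.13 to 10.18 elsewhere, while B-lineage means stay between 4.42 and 4.76.

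The genes whose pattern was most like the mean of the 8 were sought over the 7 thymus-rich arrays by Pearson's r among 19497 other named genes, as a description without a test, since all share the same arrays and the choice of the highest values raises r. The 8 highest were Clec2d (r = 0.99), Ripor2 (0.98), Bst1 (0.98), Gbp7 (0.98), H2-Ab1 (0.97), Bak1 (0.97), Gzma (0.97) and Tapbpl (0.96). Gzma, the protease granzyme A of cytotoxic and some fetal lymphoid cells, read 2.91 and 3.69 on the thymus-poor arrays and 13.97 to 15.58 on the others, highest on Foxn1 mutant replicate 3 and wild type replicate 2. Gbp7, an interferon-induced GTPase, read 6.27 and 6.31 against 7.84 to 10.33. H2-Ab1, a chain of MHC class II, read 6.41 and 6.76 against 10.16 to 11.49. Clec2d, the ligand of an NK receptor, read 7.50 and 8.09 on the thymus-poor arrays and 7.88 to 9.89 on the others, so that it did not separate them. Of the 8 themselves, Cd3g and Lat had r = 0.97 with the mean that includes them, Cd3e 0.95, Cd3d 0.91, Ptcra and Cd247 0.89, Rag2 0.70 and Zap70 0.52. Thy1 reached 0.89 and Ptprc 0.63 on the same measure.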

How the data were processed

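Total RNA of thymic lobes was measured on 9 Clariom S arrays, 3 per genotype. The deposited log2 values of the authors were used as given. How the signals were background-corrected and normalized, with which software and on which build, is not stated in the sources used here. Values ran from 1.47 to 19.92. Of 28846 features, 6640 controls were left out, which left 22206 transcript clusters, 19572 of them with 1 gene symbol from the platform annotation. Each array's level of background was read from the median of 5222 negative controls.

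Limma 3.58.1 (R 4.3.3) fitted a mean per genotype to every cluster over the 9 arrays, followed by empirical Bayes moderation. All tests were two-sided. The Benjamini-Hochberg adjustment ran over the 22206 clusters and the threshold was 0.05. Errors with ± are SDs over 3 arrays unless called SE. With 3 arrays against 3 an exact permutation test of 1 gene cannot give a p below 0.1. The number of arrays limits the precision. Python 3.11.15 with matplotlib 3.10.9 drew the figures.

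The members and the 13 gene lists were chosen with earlier results of these data known. The genes named are the 10 members, Foxn1 and Tbx1, the first 4 measured genes of each list in listed order with any list gene that was called, and the 8 genes most like the mean of the members over the 7 thymus-rich arrays. Promoters are those of RefSeq on GRCm38.p6, matched by symbol for all 8 measured members. Alternatives were other normalizations, filters, moderation, weights per array, a block for the date code, fewer arrays, a floor at background and centring on leukocyte genes. Array replicates were numbered in the order of their records, which pairs no samples.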

Additional observations from a re-analysis of the deposited data

How the results depend on the processing

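Over 23 alternatives in each of the 3 comparisons, limma called 0 of the measured genes every time, with a lowest adjusted p of 0.816 for Foxn1 mutants against wild type, 0.437 for Tbx1 mutants against wild type and 0.447 for Foxn1 against Tbx1 mutants. Some alternatives leave the difference of each gene unchanged by design. Among them are averaging the clusters of a symbol, leaving out low-signal clusters and leaving out an array of the third genotype. The median difference of the 8 genes between Foxn1 and Tbx1 mutants was -0.03 with all arrays and -2.34 with the date code as a fixed block, a fit in which these genotypes share only code A, whose Foxn1 mutant array is thymus-poor. The same block gave -1.10 for Foxn1 mutants against wild type and 1.17 for Tbx1 mutants against wild type, the latter opposite in sign to the -0.80 without the thymus-poor arrays. Leaving out 1 array at a time moved the median for Foxn1 mutants against wild type between -0.82 and 0.74. For Tbx1 mutants against wild type it moved between -0.80 and 0.81, and for Foxn1 against Tbx1 mutants between -0.57 and 0.54. In each comparison the sign depended on which array was left out. Over all clusters the calls ranged from 0 to 3, from 0 to 20 and from 0 to 4. Centring each array on its leukocyte mean moved the median of all clusters to 0.17, -0.43 and 0.60 in the same order, and that of the 8 genes to 0.15, -0.45 and 0.56. Leaving out the clusters under the median signal left 5 of the 8 genes. Signals of Rag2, Cd247 and Zap70 near the negative controls limit what their differences can show. Ptcra also exceeded the 95th percentile of the negative controls on 0 arrays. No paired analysis was possible because no 2 genotypes share more than 1 of the numbers in the sample titles, and the samples that share a number have different date codes or tell nothing of a common source.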
